A study of Mus musculus with 28 samples.

Results

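The angiopoietins and Tie receptors measured here were 4 mouse genes, taken as the rows of the deposited count table that carry the symbols Angpt1, Angpt2, Tek and Tie1. All 4 were found among the 24015 genes of the table, and all 4 passed the filter on low counts that left 15238 genes for testing. Angpt1 and Angpt2 encode secreted ligands, and Tek and Tie1 encode receptors.

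Angiopoietins are secreted glycoproteins that bind Tek (also called Tie2), a receptor tyrosine kinase of endothelial cells and of early blood cells. Angpt1 activates Tek and is known as a product of cells around vessels, of megakaryocytes and of blood stem and progenitor cells, whereas Angpt2 is stored and released by endothelium and can act as an antagonist or a weak agonist of Tek. Tie1 binds no angiopoietin with high affinity and modulates Tek in a complex at the endothelial surface. In the embryonic aorta, some endothelial cells become hemogenic endothelium (HE), which gives rise to blood progenitors in the endothelial-to-hematopoietic transition that the series was made to describe.

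RNA was sequenced from 28 libraries of 100 sorted cells, in 9 populations of the dorsal aorta region of 23GFP transgenic mouse embryos. The E8.5 populations were HE (4 libraries) and endothelial cells (EC, 3 libraries). The E9.5 populations were pro-HSC/HPC, HE and EC, and the E10.5 populations were pre-HSC II, pre-HSC I, HE and EC, with 3 libraries each. HPC stands for hematopoietic progenitor cell, and pro-HSC and pre-HSC name precursors of hematopoietic stem cells. All groups carried the same 23GFP transgene, and the labels name the tissue PAS+VU for the 2 earlier days and AGM+VU for E10.5. How the sort gates were set is not stated in the labels, and nothing says that replicates came from separate litters, so a p-value here covers the spread among libraries, which may be technical.

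Libraries held 16308918 to 31405603 counts, and 3 counts corresponded to between 0.108 and 0.188 CPM, that is, counts scaled to library size. All 10 endothelial markers were detected in every population, and their summed level was 441 to 626 CPM in pre-HSC II, against 1429 to 2259 CPM in pre-HSC I and 4877 to 5546 CPM in E10.5 HE. Runx1, a transcription factor of emerging blood, averaged 2.76 ± 1.16 CPM in E8.5 HE (SD, n = 4) and 3.61 ± 2.07 CPM in E8.5 EC (SD, n = 3), so this marker did not separate HE from EC at that day. Hemoglobin transcripts took 1.11% of counts in replicate 2 of pro-HSC/HPC, 0.422% in its replicate 3, and 0.172% in replicate 3 of pre-HSC I. Summed mesenchyme and mural markers stood apart within their groups in E10.5 EC replicate 2 (339 CPM), in E10.5 HE replicate 1 (911 CPM) and in E9.5 EC replicate 3 (519 CPM).

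Angpt1 was the member that differed most between populations, and it was highest in the blood populations and lowest in EC of E8.5. Angpt1 was called higher in 7 of the 11 comparisons of 2 populations and lower in none of these by edgeR's quasi-likelihood test with Benjamini-Hochberg adjustment over all genes tested (threshold 0.05). Levels below are CPM with the library size scaled by TMM (trimmed mean of M-values), and a log2 difference is the fitted difference ± SE. In bulk libraries, fewer cells of a type and less RNA per cell cannot be told apart.

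In pre-HSC II, Angpt1 was at 241, 334 and 289 CPM, and in pre-HSC I at 201, 245 and 215 CPM. The ranges of these E10.5 blood populations overlapped, and their log2 difference of 0.39 ± 0.54 was not called (edgeR adjusted p = 0.96), with a 95% interval of -0.72 to 1.49. In E9.5 pro-HSC/HPC, the levels were 61.9, 74.9 and 58.4 CPM, below every E10.5 blood library. Set side by side, pre-HSC I averaged 220.3 ± 22.7 CPM and pro-HSC/HPC 65.1 ± 8.71 CPM (SD, n = 3 each), with no overlap of libraries. The difference of 1.76 ± 0.55 on the log2 scale nevertheless missed the threshold (edgeR adjusted p = 0.123). It was called in 2 other fits, at an adjusted p of 0.042 with no filter on low counts and of 0.0095 with only these 2 populations in the fit.

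Within HE, Angpt1 had a step at each day. The HE libraries held 0.893, 0.0384, 1.52 and 0.985 CPM at E8.5, then 5.39, 6.59 and 4.50 CPM at E9.5, and then 49.9, 58.1 and 31.8 CPM at E10.5. No HE library of one day overlapped with those of another day. Summed megakaryocyte and platelet markers were 58.8 to 92.7 CPM, 160 to 268 CPM and 437 to 510 CPM in HE of the 3 days, and summed mesenchyme and mural markers were 31.7 to 67.2 CPM, 304 to 456 CPM and 225 to 911 CPM. The mean log2(CPM + 1) over the listed markers moved less. It was 1.52 to 2.03, 1.79 to 2.08 and 2.10 to 3.05 for megakaryocyte and platelet markers. For mesenchyme and mural markers it was 1.31 to 2.07, 2.09 to 2.47 and 2.38 to 4.54. The part of these markers in the Angpt1 steps was not tested. Angpt1 rose in E9.5 HE relative to E8.5 HE by 2.70 ± 0.58 on the log2 scale (edgeR adjusted p = 0.0068), and in E10.5 HE relative to E9.5 HE by 3.08 ± 0.59 (edgeR adjusted p = 0.0034). The earlier step was not called when only E9.5 and E8.5 HE were fitted (adjusted p = 0.097).

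In EC, Angpt1 was low at all 3 days. At E8.5, 2 counts in all were found in the 3 EC libraries, and E8.5 EC replicates 1 and 2 had no Angpt1 count. The EC libraries held 0.873, 2.20 and 6.51 CPM at E9.5 and 4.99, 3.86 and 0.905 CPM at E10.5. E9.5 EC exceeded E8.5 EC (edgeR adjusted p = 0.00016), with 221 against 2 counts, a ratio of 104 after scaling for depth with a 95% counting interval of 28.6 to 868. Of the 221 counts, 149 came from E9.5 EC replicate 3, the library with 519 CPM of mesenchyme and mural markers. The call held whichever 1 library of these populations was left out, with a log2 difference of 6.47 ± 1.06 that ran between 5.42 without that library and 9.21 without E8.5 EC replicate 3, which leaves E8.5 EC with no count, so that its value depends on the prior count of the fit. E10.5 EC and E9.5 EC overlapped, and their log2 difference was 0.03 with a 95% interval of -1.17 to 1.24.

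HE and EC were set against each other for Angpt1 at each day. At E10.5, HE averaged 46.6 ± 13.5 CPM and EC 3.25 ± 2.11 CPM (SD, n = 3 each), with no overlap and a log2 difference of 3.83 ± 0.62 (edgeR adjusted p = 0.00039). Summed megakaryocyte and platelet markers were also higher there, at 437 to 510 CPM in HE against 68.7 to 102 CPM in EC. The mean log2(CPM + 1) over these markers differed less, at 2.10 to 3.05 in HE against 1.55 to 1.86 in EC. The part of these markers in the Angpt1 difference was not tested. At E9.5, HE averaged 5.49 ± 1.05 CPM and EC 3.20 ± 2.95 CPM (SD, n = 3 each), the libraries overlapped, and the log2 difference of 0.78 ± 0.58 was not called (edgeR adjusted p = 0.99). At E8.5, HE had 78 counts in 4 libraries and EC 2 counts in 3 libraries, a depth-scaled ratio of 27.2 with a 95% counting interval of 7.27 to 228, and the call (edgeR adjusted p = 0.016) was made although HE replicate 2 lay below EC replicate 3. The E8.5 call was lost without EC replicate 1 (adjusted p = 0.080), EC replicate 2 (0.079) or HE replicate 3 (0.058), and with only these 2 populations in the fit (0.24). The fitted log2 difference was 4.55 ± 1.17, and 7.28 without EC replicate 3, which held both EC counts. The change of the HE to EC difference between E10.5 and E9.5 was 3.05 ± 0.82 on the log2 scale, which did not pass (edgeR adjusted p = 0.38).

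Angpt1 rose again at the step into blood. In E9.5 pro-HSC/HPC it was 65.1 ± 8.71 CPM, against 5.49 ± 1.05 CPM in E9.5 HE (SD, n = 3 each), a log2 difference of 3.56 ± 0.60 (edgeR adjusted p = 0.0016). In pre-HSC I it exceeded E10.5 HE by 2.24 ± 0.56 on the log2 scale (edgeR adjusted p = 0.0136), and libraries did not overlap at either day. The E10.5 call was lost without HE replicate 3 (adjusted p = 0.080) or pre-HSC I replicate 2 (adjusted p = 0.0501). Summed megakaryocyte and platelet markers were 318 to 924 CPM in pro-HSC/HPC against 160 to 268 CPM in E9.5 HE. At E10.5 the sums overlapped, at 359 to 541 CPM in pre-HSC I and 437 to 510 CPM in HE. The mean log2(CPM + 1) over these markers was higher in blood at both days. It was 3.13 to 4.70 in pro-HSC/HPC against 1.79 to 2.08 in E9.5 HE, and 4.08 to 4.53 in pre-HSC I against 2.10 to 3.05 in E10.5 HE. The part of these markers in the Angpt1 differences was not tested. Without pro-HSC/HPC replicates 2 and 3, which held the hemoglobin transcripts, 1 library of that population was left and was taken to vary like the other populations. The log2 difference was then 3.51 (edgeR adjusted p = 0.040).

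**Figure D1:**
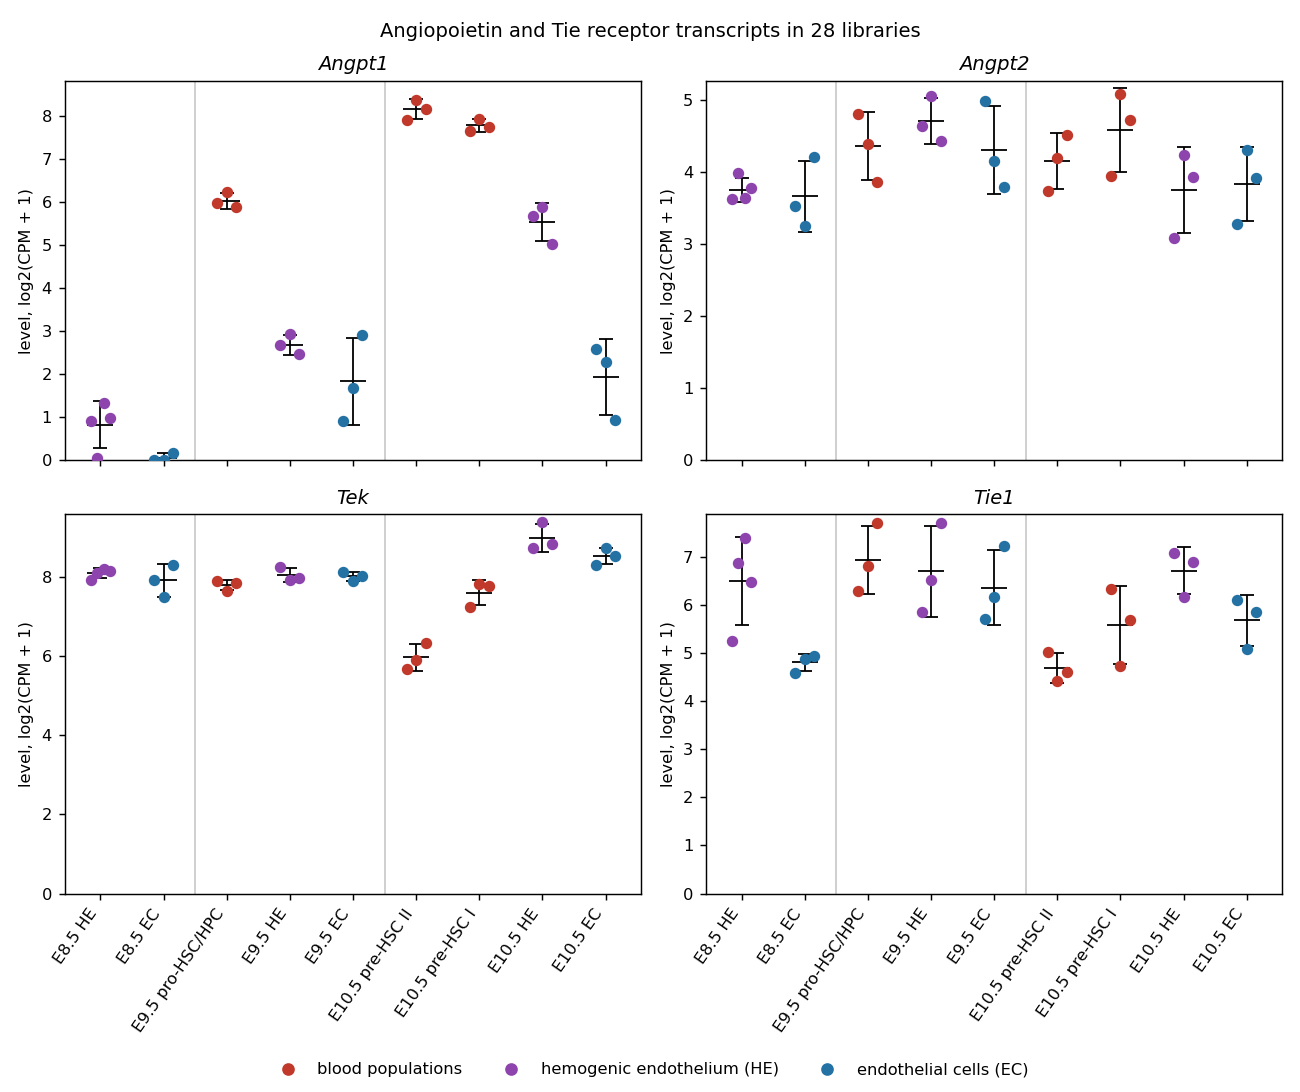
Level of each member in 28 libraries, as log2(CPM + 1) on the y axis, with populations on the x axis grouped by embryonic day. Points are libraries and black bars are mean ± SD of the plotted values: Angpt1 spans the widest range and is highest in pre-HSC II, Angpt2 stays within a narrow band, and Tek is lowest in pre-HSC II.

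Angpt2 kept a narrow range over the populations. Its population means ran between 12.2 ± 4.69 CPM in E8.5 EC and 25.7 ± 6.02 CPM in E9.5 HE (SD, n = 3 each), a 2.10-fold range, and every population overlapped with its neighbour in the order of levels. With edgeR, Angpt2 was called in 0 of the 11 comparisons of 2 populations, with an unadjusted p under 0.05 in 3 of them. Its smallest adjusted p was 0.094, in E9.5 HE against E8.5 HE.

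That comparison set 24.0, 32.3 and 20.7 CPM in E9.5 HE against 11.4, 14.9, 11.5 and 12.7 CPM in E8.5 HE. The libraries did not overlap, and the log2 difference was 1.03 ± 0.37. At the next day, Angpt2 was at 7.53, 17.9 and 14.3 CPM in E10.5 HE, below every E9.5 HE library. The log2 difference of E10.5 HE to E9.5 HE was -0.96 ± 0.41 (edgeR adjusted p = 0.20). At E10.5, pre-HSC I held 14.4, 32.9 and 25.4 CPM, and its libraries overlapped with those of HE, and the log2 difference of pre-HSC I to HE was 0.87 ± 0.40 (edgeR adjusted p = 0.21). Where a member was not called, its interval bounds the difference: for Angpt2 in E10.5 HE against EC, the 95% interval was -0.90 to 0.76 on the log2 scale.

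Angpt2 lies at chr8:18690263-18741562 on the minus strand (mm9, 9 exons, 3560 exonic bases), inside the span of Mcph1 on the opposite strand, a gene of chromosome condensation. Their exons share 0 bases. Angpt1 lies at chr15:42256213-42508523 on the minus strand (9 exons, 4316 exonic bases), and no other gene of the table overlaps its span. Whether counting used strand is not given in the sources used here. Any part of reads from the Mcph1 strand in the Angpt2 counts, and so in the ratios to Angpt1 below, was not tested.

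The balance between the 2 ligands lay on the side of Angpt2 in EC and of Angpt1 in blood. The ratio of Angpt2 to Angpt1 was formed in each library from counts per kilobase of exon with 0.5 added to each count. Its geometric mean at E8.5 was 28.4 in HE and 358 in EC, and the EC value rests on 2 counts of Angpt1. At E9.5 it was 0.366 in pro-HSC/HPC, against 5.61 in HE and 9.73 in EC. At E10.5 it was 0.0714 in pre-HSC II, 0.127 in pre-HSC I and 0.334 in HE, against 6.12 in EC.

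In log2 units, the ratio in HE minus that in EC was -3.65, -0.79 and -4.19 at E8.5, E9.5 and E10.5, with a mean of -2.88 (two-sided exact permutation p = 0.00379 with labels permuted within days, 0.01 after adjustment over 4 ratio tests). Without a count added, which leaves out the libraries with no Angpt1 count, the mean was -2.47 and the adjusted p was 0.06. The difference was -3.94 for pro-HSC/HPC minus E9.5 HE and -1.40 for pre-HSC I minus E10.5 HE, with a mean of -2.67 (two-sided exact permutation p = 0.005, the smallest this design allows, and 0.01 after adjustment).

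**Figure D2:**
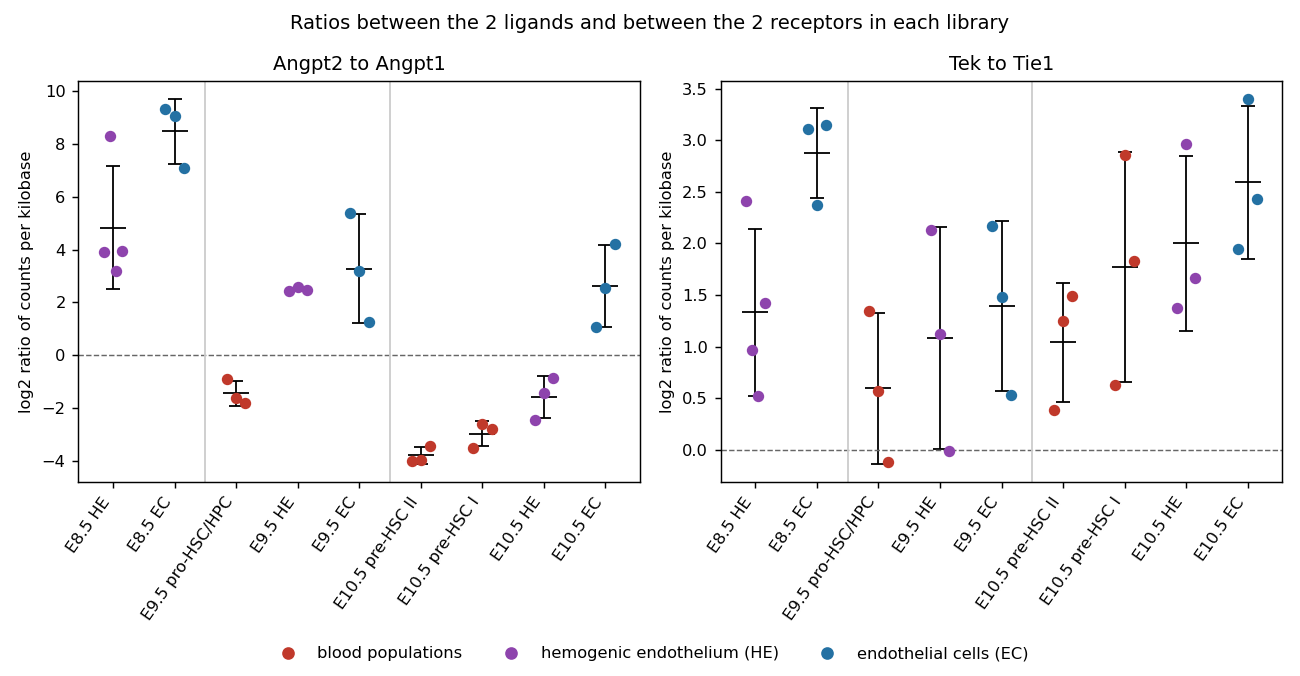
Log2 ratio of counts per kilobase in each library for Angpt2 to Angpt1 (left) and Tek to Tie1 (right), by population. Points are libraries, black bars are mean ± SD, and the dashed line marks equal counts per kilobase: Angpt2 to Angpt1 lies below it in all blood populations and in E10.5 HE, and Tek to Tie1 lies above or near it in every population.

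The receptors followed other courses than Angpt1, and Tek and Tie1 differed from each other. Tek lies at chr4:94405980-94541667 on the plus strand (mm9, 23 exons, 4702 exonic bases) and Tie1 at chr4:118143796-118162454 on the minus strand (23 exons, 3879 exonic bases). ETS factors bind a GGAA core and are known to act on the promoters of both receptors, so the 250 bases before each start site are shown, from RefSeq on GRCm38.p6, a later build than that of the counts. Each reads 5′ to 3′ on the strand of the gene, and capitals mark GGAA or its reverse complement TTCC.
Tek, chr4:94739039-94739288, plus strand: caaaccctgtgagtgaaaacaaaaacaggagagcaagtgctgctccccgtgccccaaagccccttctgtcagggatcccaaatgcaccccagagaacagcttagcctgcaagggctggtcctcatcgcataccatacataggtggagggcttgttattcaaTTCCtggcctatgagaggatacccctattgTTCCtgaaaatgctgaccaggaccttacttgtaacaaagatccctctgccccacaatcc
Tie1, chr4:118489850-118490099, minus strand: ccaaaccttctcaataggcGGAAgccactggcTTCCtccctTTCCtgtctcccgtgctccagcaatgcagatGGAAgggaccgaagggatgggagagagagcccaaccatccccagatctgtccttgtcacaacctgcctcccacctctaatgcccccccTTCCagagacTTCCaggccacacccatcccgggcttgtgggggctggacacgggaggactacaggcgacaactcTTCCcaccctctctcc
GGAA was found on either strand 2 times before Tek and 7 times before Tie1. Of 32851 mouse windows of this length, 93.4% held GGAA at least once, 76.8% at least 2 times and 3.82% at least 7 times. AGATAA, a form of the site bound by GATA factors, had 0 matches on either strand in both windows and was held by 9.99% of all windows. TGTGGT, a form of the RUNX site, also had 0 matches on either strand in both and was held by 14% of all windows. Other forms of the GATA and RUNX sites were not searched.

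Tek peaked in E10.5 HE and was lowest in pre-HSC II. In E10.5 HE it was at 425, 669.8 and 451 CPM, above all 3 E10.5 EC libraries at 317, 420.2 and 370.3 CPM. Among libraries of the other days, E8.5 EC replicate 3 at 317 CPM was the only one to reach the lowest E10.5 EC library. Population means of E8.5 and E9.5 ran between 223 ± 19.8 CPM in pro-HSC/HPC and 272 ± 23.0 CPM in E8.5 HE. The 5 populations of E8.5 and E9.5 overlapped with their neighbours in the order of levels. Next in the order stood the blood populations of E10.5, with 149.7, 223 and 217 CPM in pre-HSC I and 50.1, 58.6 and 79.5 CPM in pre-HSC II.

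Tek rose in E10.5 HE relative to E9.5 HE by 0.96 ± 0.23 on the log2 scale (edgeR adjusted p = 0.0151). This call was lost without E9.5 HE replicate 2 (adjusted p = 0.069), E9.5 HE replicate 3 (0.082) or E10.5 HE replicate 2 (0.134). In E9.5 HE against E8.5 HE the log2 difference was -0.04 with a 95% interval of -0.47 to 0.39. HE and EC were not called apart for Tek at any day, with log2 differences of 0.15, 0.03 and 0.48 at E8.5, E9.5 and E10.5.

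At E10.5 Tek fell at both steps in blood. It fell by 1.39 ± 0.23 on the log2 scale in pre-HSC I, at 197 ± 40.8 CPM, against 515 ± 134 CPM in E10.5 HE (SD, n = 3 each; edgeR adjusted p = 0.00034). It fell by 1.65 ± 0.23 in pre-HSC II, at 62.7 ± 15.1 CPM, against pre-HSC I (edgeR adjusted p = 1.7e-05). Neither pair overlapped, and both calls held in every alternative fit that was run. At E9.5 the step into blood gave 238, 200.5 and 231 CPM in pro-HSC/HPC and 302, 241 and 252 CPM in HE, a log2 difference of -0.25 ± 0.22 that was not called (edgeR adjusted p = 1). These E9.5 libraries did not overlap either, with pro-HSC/HPC lower. The E10.5 step minus the E9.5 step was -1.14 ± 0.32 on the log2 scale. This difference of differences missed the threshold with edgeR (adjusted p = 0.145) and passed it with DESeq2 (adjusted p = 0.030). The summed endothelial markers were lower in the same populations, and their part in the fall of Tek was not tested.

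Tie1, the receptor that modulates Tek, was lowest in pre-HSC II and in E8.5 EC. Its means were 25.1 ± 5.78 CPM in pre-HSC II and 27.1 ± 3.45 CPM in E8.5 EC, and in the other populations they lay between 51.8 ± 27.1 CPM in pre-HSC I and 132 ± 66.9 CPM in pro-HSC/HPC. In the order of levels, every population overlapped with the next. Spread within a population was wide: E9.5 HE held 56.7, 91.0 and 209 CPM.

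Tie1 rose in E8.5 HE, with 37.1, 116, 167 and 87.8 CPM, against 23.2, 28.6 and 29.6 CPM in E8.5 EC. The libraries did not overlap, and the log2 difference was 1.91 ± 0.50 (edgeR adjusted p = 0.0176). It also rose in E9.5 EC, with 51.1, 70.4 and 148 CPM, relative to the same E8.5 EC libraries, by 1.73 ± 0.51 (edgeR adjusted p = 0.0189). These comparisons share their E8.5 EC libraries. Summed endothelial markers were also lower in E8.5 EC, at 2567 to 2997 CPM, against 3280 to 3601 CPM in E8.5 HE and 3076 to 3231 CPM in E9.5 EC. The part of these markers in the Tie1 differences was not tested. The E8.5 call was lost without E8.5 EC replicate 1 (adjusted p = 0.074), E8.5 EC replicate 2 (0.053) or E8.5 HE replicate 3 (0.077), and with only these 2 populations in the fit (0.064). The EC call was lost without E8.5 EC replicate 1 (adjusted p = 0.071) or E9.5 EC replicate 3 (0.152), which is the library with 519 CPM of mesenchyme and mural markers.

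At E10.5, Tie1 was at 135, 70.8 and 118 CPM in HE, against 67.7, 32.9 and 56.7 CPM in EC, and the libraries did not overlap. The log2 difference of 1.04 ± 0.50 was not called (edgeR adjusted p = 0.31). Pre-HSC I held 79.6, 25.5 and 50.4 CPM, and its log2 difference to HE of -1.06 ± 0.50 was not called (edgeR adjusted p = 0.22). Pre-HSC II held 31.5, 20.4 and 23.3 CPM, overlapping with pre-HSC I, at -1.05 ± 0.51 (edgeR adjusted p = 0.42). Within each replicate number, Tie1 was higher in HE than in EC. It fell from HE to pre-HSC I and again to pre-HSC II. With a replicate block within each day, chosen after seeing the data, these differences were called at 1.05, -1.13 and -0.93. Their edgeR adjusted p was 0.0094, 0.0033 and 0.026. The lowest correlation of same-numbered libraries was 0.082, 0.085 and 0.038 in these comparisons. What a number marks is not given in the labels.

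Tie1 and Angpt2 varied with the replicate number within a day. At E9.5, number 3 was highest for Tie1 in all 3 populations and lowest for Angpt2 in all 3, and number 1 was lowest for Tie1 in all 3. At E10.5, number 1 was highest for Tie1 in all 4 populations and lowest for Angpt2 and for Tek in all 4, and number 2 was lowest for Tie1 in all 4. At these 2 days the highest library of a population exceeded the lowest by up to 3.68-fold for Tie1, in E9.5 HE, and by up to 2.38-fold for Angpt2, in E9.5 EC and E10.5 HE. The labels do not say what a number stands for.

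**Figure D3:**
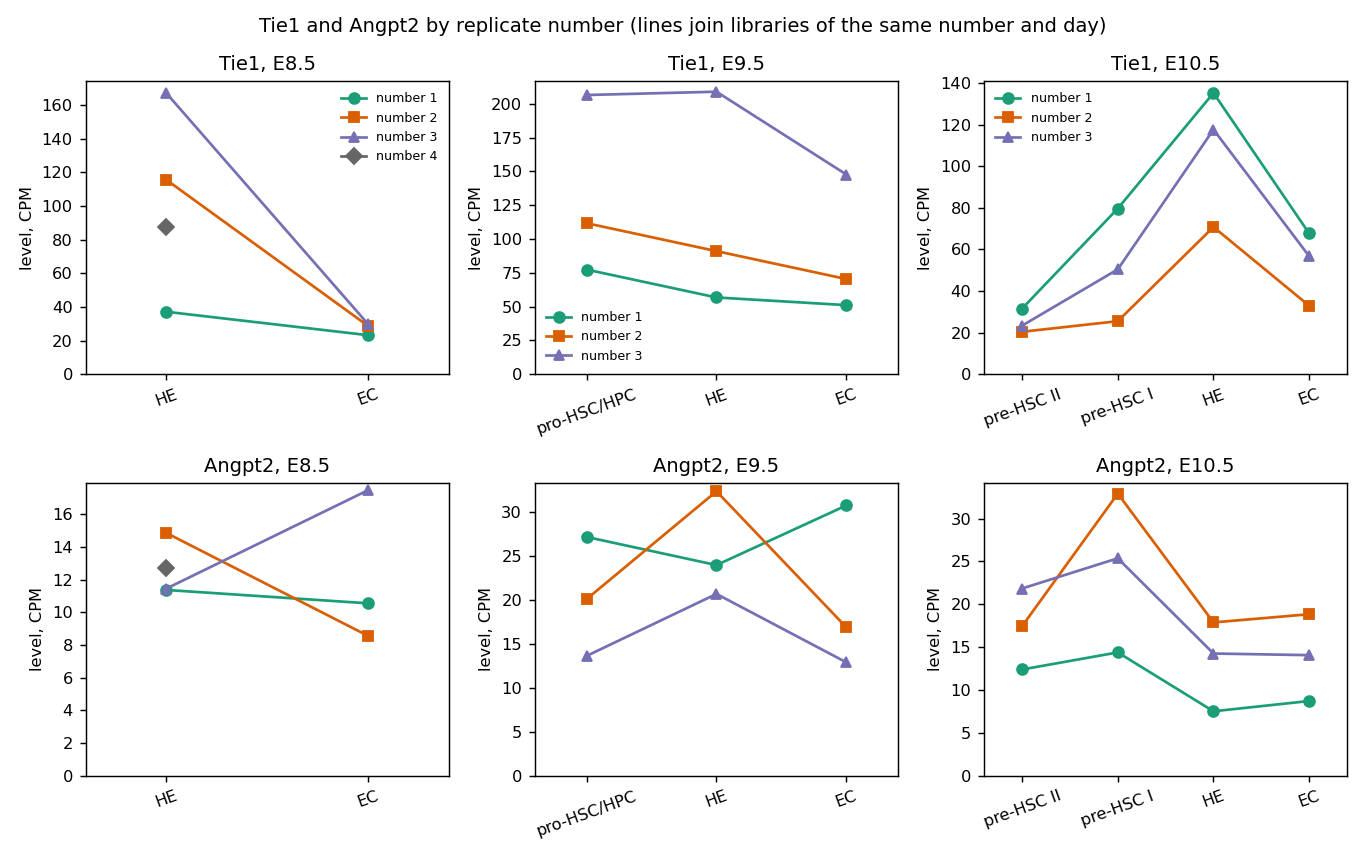
Level in CPM of Tie1 (top) and Angpt2 (bottom) by population, 1 panel per embryonic day, with lines joining libraries of the same replicate number. Number 3 is highest for Tie1 in every E9.5 population and number 1 in every E10.5 population, and the same numbers are lowest for Angpt2.

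Per kilobase of exon, Tek exceeded Tie1 in the geometric mean of every population. The Tek to Tie1 ratio was 2.52 in E8.5 HE against 7.34 in E8.5 EC. At E9.5 it was 1.51 in pro-HSC/HPC, 2.12 in HE and 2.63 in EC, and at E10.5 it was 2.06 in pre-HSC II, 3.41 in pre-HSC I, 4.00 in HE and 6.03 in EC. The log2 ratio was lower in HE than in EC at all 3 days, with a mean difference of -0.82 (two-sided exact permutation p = 0.0472), and this missed the threshold after adjustment over the 4 ratio tests (permutation p = 0.063). In the earliest blood population of each day against HE, the mean difference was -0.36 (two-sided exact permutation p = 0.5). With libraries paired by replicate number within each day, the difference of HE to EC passed (-0.82, adjusted p = 0.0067 by exact permutation). This p was adjusted beside the unpaired p of the other ratio tests. At E10.5, same-numbered HE and EC libraries did not correlate over 0.1 in every pair.

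Counted over the 4 members, the calls were few, and they are set here beside the share of all genes tested that edgeR called in either direction. In E8.5 HE against EC, 2 of 4 members were called (Angpt1 and Tie1), where 6.81% of genes were. In E10.5 HE against EC, 1 of 4 was called where 3.48% of genes were, while 3 of 4 (Angpt1, Tek and Tie1) were higher in HE without overlap of libraries, as were 11.4% of genes. In E9.5 HE against EC, 0 of 4 were called with edgeR (0.302% of genes), with 0 of 4 at an unadjusted p under 0.05 and 0 of 4 with DESeq2. In pro-HSC/HPC against E9.5 HE, 1 of 4 was called (0.656% of genes). In pre-HSC I against E10.5 HE, 2 of 4 were called (6.88% of genes), Angpt1 higher and Tek lower. In pre-HSC II against pre-HSC I, 1 of 4 was called (4.42% of genes).

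Between days, 2 of 4 members were called in E9.5 EC against E8.5 EC, where 19.7% of genes were, 1 of 4 in E9.5 HE against E8.5 HE (6.54% of genes), and 2 of 4 in E10.5 HE against E9.5 HE (3.64% of genes). E10.5 EC against E9.5 EC (0.761% of genes) and pre-HSC I against pro-HSC/HPC (1.45% of genes) called 0 of 4 with edgeR and 0 of 4 with DESeq2. Unadjusted p-values under 0.05 were found for Tek in the EC comparison and for Angpt1 and Tie1 in the blood comparison.

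The 3 differences of differences called 0 of 4 members each with edgeR. They called 0.847% of genes for the change of HE minus EC between E9.5 and E8.5, 0.0131% for its change between E10.5 and E9.5, and 0.0722% for the E10.5 against the E9.5 step into blood. At an unadjusted p under 0.05, they held Angpt1 and Tie1, Angpt1 alone, and Angpt2 and Tek, in that order. DESeq2 called 1 member, Tek, in the difference between the steps into blood and 0 of 4 in the others.

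**Figure D4:**
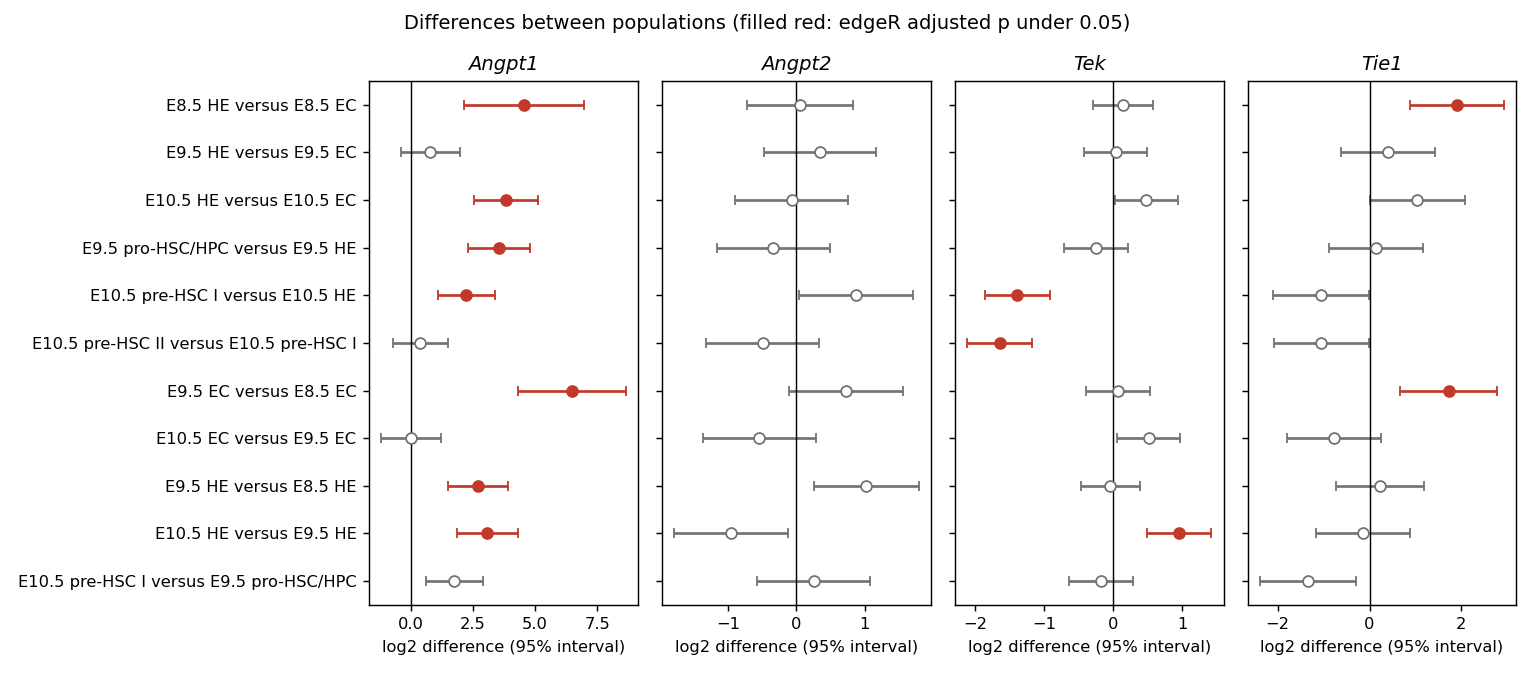
Fitted log2 difference of each member in 11 comparisons of 2 populations, with 95% intervals, on an x axis scaled separately for each gene. Filled red points passed an edgeR adjusted p of 0.05: 7 for Angpt1, none for Angpt2, 3 for Tek and 2 for Tie1.

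Of the partners and regulators of the receptors, 10 of 12 listed genes were tested. Itgb3, an integrin subunit that is also a megakaryocyte marker, had the smallest p of this list in each comparison of HE with EC and of blood with HE. It rose in HE against EC at all 3 days, with log2 differences of 4.40 ± 0.58, 2.12 ± 0.36 and 3.84 ± 0.39 (edgeR adjusted p = 1.5e-05, 0.0047 and 7.3e-07), and at both steps into blood, with differences of 3.03 ± 0.36 for the E9.5 step and 2.22 ± 0.35 for the E10.5 step to pre-HSC I (edgeR adjusted p = 4.1e-05 and 0.00022). The E8.5 difference rests on 131 counts of Itgb3 in 4 HE libraries against 4 counts in 3 EC libraries, whose mean of 0.053 CPM is below the resolved level. In E8.5 HE against EC, 5 of 10 rose and none fell, where 6.81% of all genes tested were called, and the list's median log2 difference was 0.86 against 0 over all genes. The summed endothelial markers, which include Cdh5 and Pecam1, were also higher in E8.5 HE than in E8.5 EC, and their part in this count was not tested. Ptprb, the endothelial phosphatase that removes phosphate from Tek, was at 71.8 ± 32.6 CPM in E8.5 HE (SD, n = 4), against 11.6 ± 2.58 CPM in E8.5 EC (SD, n = 3), a rise of 2.63 ± 0.39 on the log2 scale (edgeR adjusted p = 6.6e-05).

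At E10.5, several of these partners fell where Tek fell. In pre-HSC I against HE, 5 of 10 fell and 1 rose (Itgb3), where 6.88% of genes were called, with a median log2 difference of -0.97 against 0.01 over all genes tested, and Ptprb fell by 1.72 ± 0.38 (edgeR adjusted p = 0.0055). In pre-HSC II against pre-HSC I, 5 of 10 fell and none rose, where 4.42% of genes were called, with a median of -1.05 against 0. Ptprb was at 14.8 ± 3.71 CPM in pre-HSC II, against 116 ± 46.9 CPM in pre-HSC I (SD, n = 3 each), and Cdh5, the endothelial cadherin, fell by 2.09 ± 0.30 on the log2 scale (edgeR adjusted p = 2.4e-05). Cdh5 and Pecam1 are also endothelial markers, whose summed level was lower in pre-HSC II than in pre-HSC I, and the part of this in the list's counts was not tested. Svep1, a matrix protein that binds Tie1 and is named after its values were seen, had means of at most 2.00 CPM in every population.

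All 21 listed signal transducers were tested. The count of called genes was highest in E9.5 EC against E8.5 EC, with 5 of 21 higher and 1 lower, where 19.7% of all genes tested were called, and it was at most 4 of 21 in each other comparison. Dok2, an adaptor that docks on activated Tek, was called higher in 5 comparisons, and Angpt1 was called higher in 3 of these 5. Its level was 114 ± 12.0 CPM in pre-HSC II, 75.7 ± 14.6 CPM in pre-HSC I and 16.1 ± 2.24 CPM in E10.5 HE, against 1.49 ± 0.19 CPM in E10.5 EC (SD, n = 3 each). Dok2 rose in E10.5 HE against EC by 3.43 ± 0.77 on the log2 scale (edgeR adjusted p = 0.0096), and in pro-HSC/HPC against E9.5 HE by 3.92 ± 0.78 (edgeR adjusted p = 0.0097). In E9.5 HE against E9.5 EC it had 88 against 1 counts, a depth-scaled ratio of 94.3 with a 95% counting interval of 16.5 to 3766.

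Nos3 and Mapk3 fell at the steps where Tek fell. Nos3, the endothelial nitric oxide synthase, was at 16.6 ± 9.13 CPM in pre-HSC I, against 56.8 ± 24.4 CPM in E10.5 HE (SD, n = 3 each), a fall of 1.78 ± 0.42 on the log2 scale (edgeR adjusted p = 0.0083). It was at 1.23 ± 0.85 CPM in pre-HSC II, a further fall of 3.76 ± 0.47 against pre-HSC I (edgeR adjusted p = 3.5e-06). Mapk3, a kinase of the ERK pathway, fell at the same steps by 1.02 ± 0.22 and 0.83 ± 0.22 (edgeR adjusted p = 0.0049 and 0.027). Pak1, a kinase that acts on the cytoskeleton, rose in pre-HSC I against HE by 2.10 ± 0.61 (edgeR adjusted p = 0.034). The transducer list as a whole had 3 of 21 lower and 1 higher in pre-HSC I against HE (6.88% of genes called), with a median log2 difference of 0.13. It had 2 of 21 lower in pre-HSC II against pre-HSC I (4.42% of genes called), with a median of -0.084.

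All 20 listed transcription factors and FOXO1 targets were tested. In pre-HSC II against pre-HSC I, 10 of 20 fell and none rose, where 4.42% of all genes tested were called, with a median log2 difference of -1.50 against 0 over all genes. The summed endothelial markers were also lower, at 441 to 626 CPM in pre-HSC II against 1429 to 2259 CPM in pre-HSC I, and their part in this count was not tested. Epas1, a hypoxia-inducible factor known to act on Tek, was at 3.56 ± 1.63 CPM in pre-HSC II, against 70.0 ± 8.46 CPM in pre-HSC I (SD, n = 3 each), a fall of 4.29 ± 0.53 on the log2 scale (edgeR adjusted p = 2.9e-06). Ets1, a founding ETS factor, fell at both blood steps of E10.5, by 1.36 ± 0.21 and then by 1.52 ± 0.22 (edgeR adjusted p = 0.00021 and 2.2e-05). Foxc2, a forkhead factor of vessels, had 2 counts in pre-HSC II and 332 in pre-HSC I, a depth-scaled ratio of 0.00543 with a 95% counting interval of 0.000655 to 0.0198.

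Foxo1, which Akt restrains downstream of Tek and which drives Angpt2 in endothelium, rose in E8.5 HE against EC by 1.62 ± 0.29 and in E9.5 EC against E8.5 EC by 2.09 ± 0.31 on the log2 scale (edgeR adjusted p = 0.00078 and 4.9e-05). In E8.5 HE against EC, 6 of 20 genes of this list rose and none fell (median log2 difference 0.63), where 6.81% of all genes were called. In E9.5 EC against E8.5 EC, 10 rose and 2 fell (median 1.34 against 0.05 over all genes tested), where 19.7% were called. The summed endothelial markers were lower in E8.5 EC than in E8.5 HE and E9.5 EC, and their part in these counts was not tested. At E10.5, HE against EC had 4 higher and 2 lower, where 3.48% were called, led by Gata2, a factor of both endothelium and blood, at 213 ± 25.8 CPM in HE against 71.7 ± 13.7 CPM in EC (SD, n = 3 each; edgeR adjusted p = 4.8e-05). Ccnd1, the cell cycle gene cyclin D, fell in pro-HSC/HPC against E9.5 HE, with a log2 difference of -2.42 ± 0.32 (edgeR adjusted p = 0.00010).

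**Figure D5:**
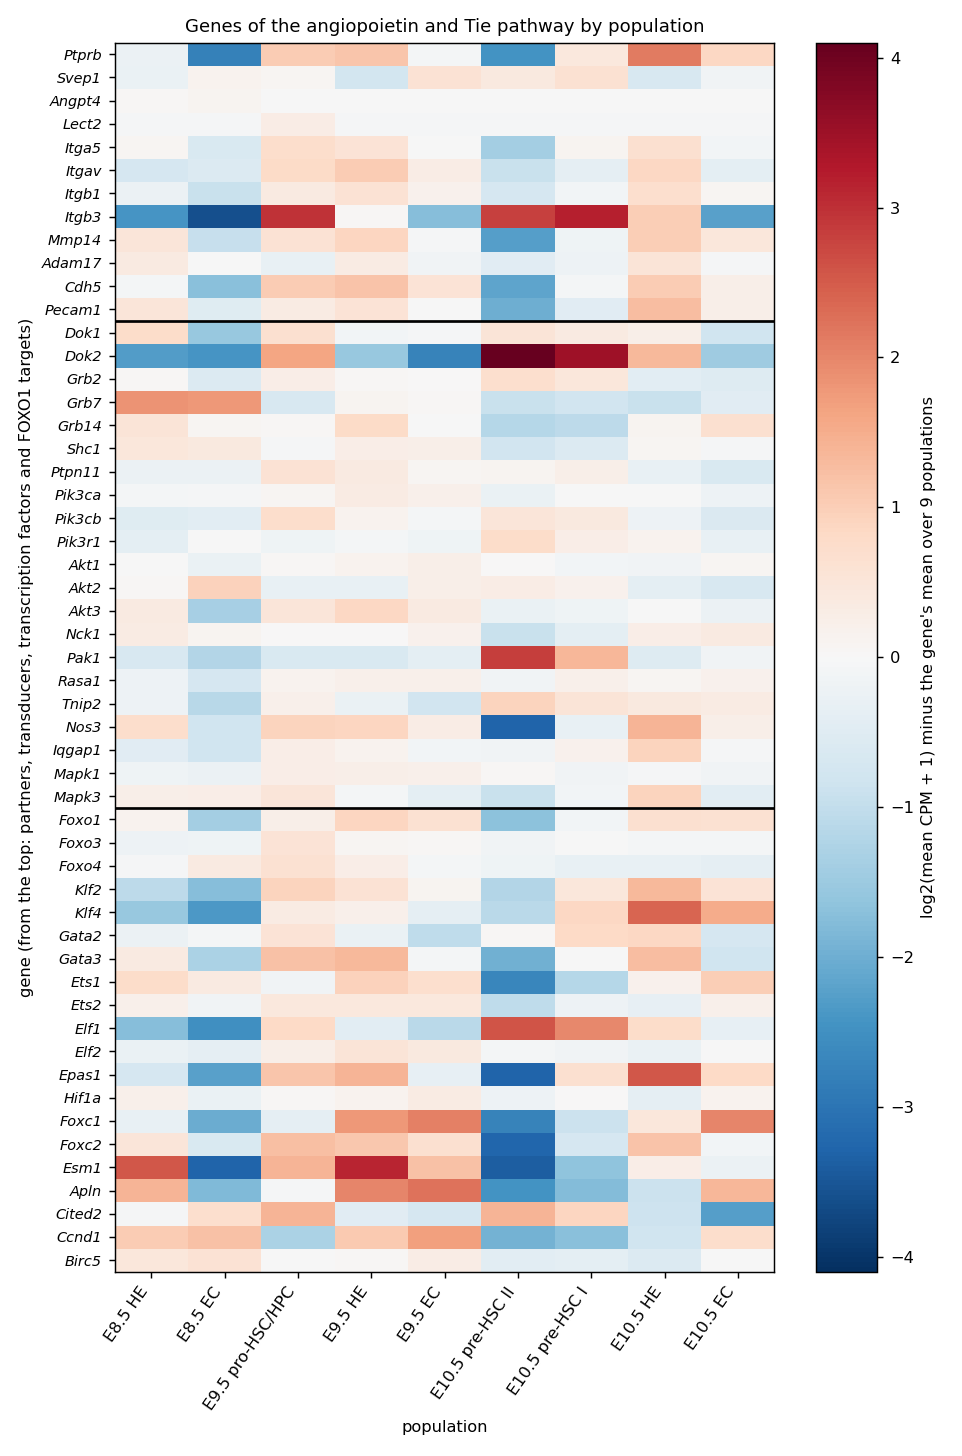
Mean level of 53 listed pathway genes in each population, as log2(mean CPM + 1) minus the mean of the gene over the 9 populations, with red above and blue below that mean. Itgb3 and Dok2 are highest in the blood populations, and Ptprb, Nos3 and Epas1 are lowest in pre-HSC II or in E8.5 EC.

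The genes most like each member were ranked by Pearson correlation of log2(CPM + 1) over the 28 libraries among 9235 genes, which describes shared populations, depth and days as much as the genes. Angpt1 was most like Gpr56 (r = 0.973), Bcl11a (0.967), Dok2 (0.960), Lgals9 (0.956) and Mctp1 (0.954), all highest in pre-HSC II. Gpr56 is an adhesion receptor and Bcl11a a transcription factor of blood cells. Tek was most like Ehd2 (r = 0.937), a protein of caveolae, and then Mmp2, Aplp2, She and Plk2, all lowest in pre-HSC II. Tie1 was most like Fam129b (r = 0.871), then Cd151, a tetraspanin, Mex3d, Fkbp1a and Vat1. Angpt2 had the weakest likeness, with Smarcad1 (r = 0.787), a chromatin remodeller, then Cdc73, Ncoa6, Ash1l and Taf2. Between the members, r was 0.426 for Tek with Tie1 and -0.475 for Tek with Angpt1, over the same 28 libraries.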

How the data were processed

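The values are raw read counts per gene, deposited by the authors as whole numbers in 1 table of 24015 mouse genes and 28 libraries. Per the labels' protocols, 100 cells were sorted into lysis buffer and their RNA was amplified with the SMARTer ultra low input chemistry. The submitters' processing notes name TopHat, SAMtools, Subread, featureCounts 1.6.2 and the mm9 build. The exonic length of each gene, in bases, and its position are other columns that the authors deposited, and levels per kilobase use that length. Whether counting used strand, and how reads that match several genes were treated, is not given in the sources used here.

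The counts were scaled by TMM and fitted in edgeR 4.0.16 (R 4.3.3) with 1 coefficient per population over all 28 libraries, after filterByExpr with a minimum count of 10, which kept 15238 genes. P-values were adjusted by the Benjamini-Hochberg method over all genes tested, with a threshold of 0.05. The fit gave 11 comparisons of 2 populations and 3 differences of differences, and its common biological coefficient of variation was 0.563. Ratios between members were tested by exact permutation of libraries within days, adjusted over 4 tests. Counting intervals and floors are exact, at 95%, and cover counting error only.

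Replicates of a population differed by more than counting error, with a chi-square of at least 40.3 per degree of freedom. Same-numbered libraries deviated together (correlation over 0.1 in every pair) in 3 of 11 comparisons, E8.5 HE against EC, E9.5 HE against EC and pro-HSC/HPC against E9.5 HE. All 3 lie within a day, where a library correlated best with its own number in 17 of 18 pairs, against 3 of 15 pairs between days. Correlations ranged between -0.165 and 0.396 over all pairs, and the labels do not say what a number marks. Alternatives were DESeq2 1.42.0, other scalings and filters, a fit of only the populations compared, replicate blocks, and leaving out libraries. The 4 members and the gene lists were chosen with earlier results of these data known. Named genes were the members, the 5 genes most correlated with each member, and up to 4 called genes per list and comparison with the smallest p. Promoters come from RefSeq GRCm38.p6. Angpt1 and Angpt2 promoters are not shown.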

Additional observations from a re-analysis of the deposited data

Results flagged for a closer look

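The log2 ratio of Angpt2 to Angpt1 in E8.5 HE had 1 library far from the others. Its values were 3.92, 8.29, 3.17 and 3.94 in replicates 1 to 4, and the gap of replicate 2 to its nearest neighbour was 0.85 of the whole range. Replicate 2 held 1 count of Angpt1, against 22 to 32 in the other 3 libraries, and its Angpt2 level of 14.9 CPM was the highest of the 4. In all, 6 values in groups of 4 libraries were checked in this way, and chance alone puts about 1 in 20 such groups past the limit.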

How the results depend on the processing

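Of the 12 called differences of members, 6 kept their call in every alternative run: Angpt1 in E10.5 HE against EC, E10.5 against E9.5 HE, E9.5 against E8.5 EC and pro-HSC/HPC against HE, and Tek in pre-HSC I against HE and in pre-HSC II against pre-HSC I. No called difference reversed, and 841 of 904 alternative values kept their direction and side of the threshold. The cause of the changes below was not tested. At 3 counts a library, levels under 0.108 to 0.188 CPM are not resolved, which touches Angpt1 in E8.5 EC, with 2 counts in 3 libraries.

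With DESeq2, the difference between the blood steps for Tek was called at -1.14. Upper-quartile scaling and the stricter filter gave 8.7e-06 and 0.0082 for Tek in E9.5 against E8.5 HE, which had been -0.04. With no filter, Angpt1 in pre-HSC I against pro-HSC/HPC was called at 1.78. With only the compared populations fitted, Angpt1 (4.42) and Tie1 (1.97) in E8.5 HE against EC and Angpt1 in E9.5 against E8.5 HE (2.67) lost their calls, and Angpt1 in pre-HSC I against pro-HSC/HPC was called (1.77).

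A replicate block shared over days changed no call of a member. A replicate block within each day, chosen after seeing the data, added calls for Tie1 in E10.5 HE against EC (1.05), pre-HSC I against HE (-1.13), pre-HSC II against pre-HSC I (-0.93) and the change of HE minus EC between E9.5 and E8.5 (-1.40), for Angpt2 in pre-HSC I against HE (0.88), and for the difference between the blood steps for Tek (-1.15) and Tie1 (-1.37). In the 3 comparisons whose numbers pair, it changed no call of a member, but it called 2193 genes against 1038 in E8.5 HE against EC, 168 against 46 in E9.5 HE against EC and 218 against 100 in pro-HSC/HPC against HE. Each library correlated best with its own number in 17 of 18 pairs within a day and in 3 of 15 pairs between days. With the ratio tests blocked by number, Tek to Tie1 in HE against EC passed (-0.82, adjusted p = 0.0067 by exact permutation) and Angpt2 to Angpt1 in blood against HE did not (-2.67, adjusted p = 0.0625 by exact permutation). The latter is the smallest adjusted p that the blocked test allows for blood against HE, so this ratio could not pass there. With 0 added to the counts, Angpt2 to Angpt1 in HE against EC did not pass (-2.47).

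Without pro-HSC/HPC replicates 2 and 3, which leaves 1 library of that population, taken to vary like the others, the uncalled differences to HE changed sign for Angpt2 (0.10) and Tie1 (-0.60), as did Angpt2 in pre-HSC I against pro-HSC/HPC (-0.16). Without 4 libraries, the one highest in mesenchyme and mural markers in each of E9.5 EC, E10.5 EC, E10.5 HE and pre-HSC I, chosen after seeing the data, Tie1 in E9.5 against E8.5 EC lost its call (1.18), and the sign turned for Angpt2 in E10.5 HE against EC (0.51), Tie1 in E10.5 against E9.5 EC (0.041), and Angpt2 (0.39) and Tie1 (-0.37) in the change of HE minus EC between E10.5 and E9.5.

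Leaving out 1 library at a time, E8.5 HE against EC ranged between 3.94 and 7.28 for Angpt1, -0.13 and 0.40 for Angpt2, -0.021 and 0.37 for Tek, and 1.58 and 2.20 for Tie1. E9.5 against E8.5 EC ranged between -0.087 and 0.30 for Tek and 1.18 and 2.01 for Tie1. E9.5 against E8.5 HE ranged between -0.13 and 0.046 for Tek and -0.45 and 0.58 for Tie1. E9.5 HE against EC ranged between -0.066 and 0.11 for Tek and -0.27 and 0.98 for Tie1. E10.5 against E9.5 EC ranged between -0.42 and 1.10 for Angpt1. E10.5 against E9.5 HE ranged between 0.73 and 1.09 for Tek and -0.47 and 0.55 for Tie1. Tie1 in pro-HSC/HPC against HE ranged between -0.33 and 0.83. Angpt2 ranged between -0.029 and 0.55 in pre-HSC I against pro-HSC/HPC and between -0.35 and 0.22 in E10.5 HE against EC. Angpt1 in pre-HSC I against HE ranged between 2.04 and 2.43. The change of HE minus EC between E9.5 and E8.5 ranged between -0.043 and 0.73 for Angpt2 and -0.32 and 0.066 for Tek. Tek to Tie1 in HE against EC ranged between -0.99 and -0.63, and passed without any of 5 libraries.

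The number of genes called moved more. DESeq2 called 1698 genes against 1038 in E8.5 HE against EC, 945 against 530 in E10.5 HE against EC, 1587 against 1049 in pre-HSC I against HE, 1735 against 997 in E9.5 against E8.5 HE and 1055 against 555 in E10.5 against E9.5 HE. It called 169 against 46 in E9.5 HE against EC, 218 against 100 in pro-HSC/HPC against HE, 418 against 116 in E10.5 against E9.5 EC and 490 against 221 in pre-HSC I against pro-HSC/HPC. Leaving out 1 library at a time gave 264 to 1529 genes in E9.5 against E8.5 HE, 210 to 489 in E10.5 against E9.5 HE, 26 to 114 in E10.5 against E9.5 EC, 582 to 1373 in E8.5 HE against EC, 1714 to 2920 against 2999 in E9.5 against E8.5 EC, 11 to 38 in E9.5 HE against EC, 50 to 85 in pro-HSC/HPC against HE, 284 to 455 in E10.5 HE against EC, 512 to 1091 in pre-HSC I against HE and 57 to 181 in pre-HSC I against pro-HSC/HPC. With only the compared populations fitted, 191 were called in E8.5 HE against EC and 469 in E9.5 against E8.5 HE.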
